A study of Mus musculus with 29 samples.

Results

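The second day of adipogenic induction was followed in cells that had been exposed to KDM5-C70 (C70), an inhibitor of the KDM5 histone demethylases, before induction. The 4 day 2 libraries of C70-treated 3T3-L1 cells were compared with their 4 day 1 libraries, so 8 of the 29 samples of the series were used, and all 11959 genes of the count table entered the comparison. 3T3-L1 is a mouse fibroblast line that turns into white adipocytes in culture. Cells received 10 µM C70, or the vehicle DMSO, from day -2 to day 0, and both arms were then given dexamethasone, insulin, isobutylmethylxanthine (IBMX) and a PPARγ agonist from day 0 to day 2. The inhibitor was therefore no longer added in the 2 days studied here, and every sample, vehicle included, was in induction medium. The vehicle arm (3 libraries at day 1 and 3 at day 2) gave the matched comparison. Nothing in the labels says that replicates came from separate cultures, so P values measure the spread between these samples, which may be technical.

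KDM5 enzymes remove methyl groups from lysine 4 of histone H3, a mark of active promoters. In induced 3T3-L1 cells, cAMP and glucocorticoid signals first switch on C/EBPβ and C/EBPδ, which then help to switch on PPARγ and C/EBPα, the regulators of the fat cell program. In the same days the growth-arrested cells re-enter the cell cycle and divide in a round known as mitotic clonal expansion. Lipid genes, mitochondrial genes and insulin-responsive genes come up as the fibroblast program and its matrix genes go down.

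Total counts ranged from 16320275 to 20162888 in the 8 C70 libraries. Replicates within a group differed by more than counting noise (chi-square per degree of freedom 2.90 to 6.83 with C70 and 3.61 to 13.9 in vehicle), so no library was a copy of another. Vehicle replicate 1 stood apart on both days (9.27 and 12.7 on day 1, 13.9 and 10.6 on day 2). Vehicle replicates 2 and 3 differed by 3.68 on day 1 and 3.61 on day 2. On the first principal component of all 29 samples, which held 67.4% of the variance, C70 samples lay at -33.7 to -31.6 on day 1 and 5.1 to 9.1 on day 2, and vehicle samples at -21.8 to -18.6 and 31.0 to 32.5. Expression is given as CPM, counts scaled to a common library total, and CPM values are compared between samples and not between genes. A differentially expressed gene (DEG) had an adjusted P under 0.05 by edgeR's quasi-likelihood test and a log2 fold change beyond 0.32 in either direction. SE is the standard error of a log2 fold change. In bulk RNA, fewer cells of a type and less RNA per cell cannot be told apart. Whether counting used strand is not given in the sources used here. Of the 108 genes named by rule, 45 overlap an annotated gene on the other strand and 5 have a named pseudogene, which limits what their counts can be assigned to. The first kind includes G0s2 and Hsd11b1 (both opposite Lamb3), Cyp51 (Akap9), Masp1 (Rtp4), Mdh1 (Wdpcp), Angptl7 (Mtor), Cebpb (Tmem189), Cebpd (Spidr), Ccna2 (Exosc9) and Ccnd1 (LTO1), and the second Tubb4b, Cycs, Mpc1, Rps27 and Rpl27a.

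The labels call every sample an adipocyte. All 10 adipocyte markers of the list were present and were DEGs with higher expression at day 2 (median log2 fold change 2.69), and their summed level rose from 3511 to 3641 CPM at day 1 to 14732 to 16345 at day 2. Preadipocyte and fibroblast markers were still abundant, at 15734 to 17147 CPM on day 1 and 9228 to 10010.1 on day 2, and 8 of the 10 in the table fell. These sums include Col1a1, Col1a2 and Col3a1, which also belong to the collagen list. Of other cell types, 0 of 6 endothelial, 1 of 7 skeletal muscle, 2 of 8 macrophage, 3 of 6 smooth muscle and 3 of 9 osteoblast or chondrocyte markers were in the table, and Adgre1, Csf1r, Ptprc, Pecam1, Cdh5, Myod1, Myog, Sp7 and Ucp1 were not among its genes. Both macrophage markers in the table, Cd68 and Cd14, fell (summed 17.3 to 20.2 CPM on day 1 and 9.02 to 10.1 on day 2), as did 2 of the 3 smooth muscle markers (13.01 to 15.2 and 5.4 to 9.5 CPM), which also belong to the contractile list, and 2 of the 3 osteoblast or chondrocyte markers (132 to 143 and 94.4 to 106 CPM). The fall of these markers ran beside that of the matrix and contractile genes described further on, and their part in it was not tested. The authors kept genes that were detected broadly (all had CPM above 1 in at least 20 samples), so genes on in few groups were not analysed here.

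Between day 1 and day 2 in C70-treated cells, 4416 genes were DEGs. Higher expression was found for 2253 (18.8% of the genes tested) and lower expression for 2163 (18.1%), and the counts within gene lists are read against these shares. Over larger folds, 352 DEGs rose and 246 fell over 2-fold, and 65 rose and 7 fell over 4-fold. On the adjusted P value alone, 3595 genes were higher and 3410 lower, and with a fold change over 1.5 there were 1003 and 1010. The median log2 fold change over all genes was 0.0022. Every day 1 library lay on one side of every day 2 library for 6916 genes (57.8%). In vehicle, 2662 genes rose (22.3%) and 2630 fell (22%).

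Fat cell genes were among the largest rises of well-expressed genes. Adiponectin (Adipoq), a hormone secreted by adipocytes, was measured at 6.63, 6.79, 6.33 and 5.35 CPM in the 4 day 1 libraries and at 247, 298, 273 and 243 in the 4 day 2 libraries. All day 2 libraries were far above all day 1 libraries, with a log2 fold change of 5.40 (SE 0.10, adjusted P = 4.67e-27). Cidec, which coats and fuses lipid droplets, went from 112, 107, 109.9 and 96.3 CPM to 2101, 2477, 2288 and 2192, a log2 fold change of 4.41 (SE 0.086, adjusted P = 7.83e-27). Fabp4, the fatty acid carrier of adipocytes, went from 468, 471, 469 and 477 to 3492, 4033, 3895 and 3735 CPM. Its log2 fold change was 3.01 (SE 0.076, adjusted P = 3.67e-24), and the day 1 libraries were tightly grouped. The other genes among the 8 largest rises of well-expressed DEGs were Pla2g16 (11.6 to 142 CPM, log2 fold change 3.61), a phospholipase of fat, Acsl1 (261 to 3170.5 CPM, log2 fold change 3.60), which activates long-chain fatty acids, G0s2 (9 to 105 CPM, log2 fold change 3.55), an inhibitor of lipolysis, Cyp51, a sterol demethylase described with its pathway, and the fatty acid carrier Fabp5 (56.6 to 459.5 CPM, log2 fold change 3.02). These genes were picked for the size of the rise and for groups that do not overlap, so neither is a separate result. The same holds below for the largest falls and for list members named for the size of their change.

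Most lipid storage genes rose. Of 23 lipid droplet, lipolysis and fatty acid uptake genes in the table, 19 rose and 2 fell, and the median log2 fold change was 1.255 against 0.0022 for all genes. Gpd1, which makes the glycerol backbone of triglyceride, had the largest rise of the list, from 3.34, 3, 3.22 and 2.19 CPM to 176, 225, 174 and 159.9 (log2 fold change 5.97 (SE 0.12, adjusted P = 1.29e-26)). Its day 1 level was low in all 4 libraries, and all day 2 libraries were far higher. The 2 that fell were perilipins of general lipid droplets, Plin3 (196 to 143 CPM, log2 fold change -0.45) and Plin2 (389 to 311 CPM, log2 fold change -0.32). The call on Plin2 was lost on the fold threshold without day 1 replicate 2 or 4 or day 2 replicate 1 or 2 (log2 fold change -0.31 to -0.32). Members with other roles in fat storage, named for those roles after their values were seen, were Plin1, the perilipin of adipocytes (log2 fold change 2.49), hormone-sensitive lipase Lipe (2.34) and lipoprotein lipase Lpl (1.30).

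Fatty acid and triglyceride synthesis enzymes rose for 21 of 36 members and fell for 2 (median log2 fold change 0.47). Without day 1 replicate 2 the number that fell was 4. Thrsp, a lipogenic nuclear protein, went from 1.34, 1.62, 1.82 and 2.09 CPM to 17.1, 21.1, 17.1 and 13.98, and all 4 day 2 libraries were higher. The log2 fold change was 3.33 (SE 0.17, adjusted P = 1.71e-16). Agpat4, an acyltransferase of phospholipid synthesis, fell (87.9 to 56.3 CPM, log2 fold change -0.64). In the named enzymes of the pathway, chosen after their values were seen, Fasn (fatty acid synthase) had a log2 fold change of 0.79, Scd1 (stearoyl-CoA desaturase) of 0.95 and Acaca (acetyl-CoA carboxylase) of 0.50, all DEGs.

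Of 22 adipokine and hormone response genes 12 rose (54.5%, against 18.8% of all genes) and 3 fell (13.6%, against 18.1%), with a median of 0.35. Resistin (Retn), secreted by mouse fat cells, rose from 5.14, 6.25, 5.16 and 6.08 CPM to 99.5, 117, 115 and 105 (log2 fold change 4.26 (SE 0.12, adjusted P = 5.54e-23)). Day 2 libraries of Retn lay well apart from day 1 libraries. Igf1, a growth factor, fell (56.5 to 24.9 CPM, log2 fold change -1.18), and so did Angptl4, an inhibitor of lipoprotein lipase (733 to 529 CPM, log2 fold change -0.47).

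Of 35 transcription factors and cofactors of adipogenesis 9 rose and 9 fell (25.7% each, near the 18.8% and 18.1% of all genes), and the median was 0.065 (0.0076 with quantile normalization). Pparg, the regulator of the fat cell program, was at 51.9, 52.6, 54.6 and 52.5 CPM on day 1 and at 103, 114, 119.5 and 113 on day 2 (log2 fold change 1.09 (SE 0.052, adjusted P = 2.26e-17)). Cebpa, its partner, was at 77.1, 78.4, 77.7 and 73.5 and then at 186, 199, 189 and 194 CPM (log2 fold change 1.33 (SE 0.075, adjusted P = 1.41e-15)). Both genes were higher in every day 2 library. The early factors went the other way: Cebpd fell from 138, 145, 148 and 139 CPM to 104, 103, 99.1 and 96.9, with no overlap between the days (log2 fold change -0.50 (SE 0.10, adjusted P = 7.6e-05)). Cebpb went from 165, 170.5, 171 and 156 CPM to 139, 133, 120.2 and 126 (log2 fold change -0.35 (SE 0.14, adjusted P = 0.0344)). This last call was at the threshold and was lost without any 1 of day 1 replicates 1, 2 or 3 or day 2 replicates 2, 3 or 4 (adjusted P = 0.0512 to 0.0855). Klf15, a promoter of adipogenesis and glucose uptake, rose from 1.49, 0.935, 1.82 and 1.95 to 4.64, 4.89, 5.15 and 5.07 CPM (log2 fold change 1.68), and Nr1h3, the oxysterol receptor LXRα, rose as well (22.8 to 58.2 CPM, log2 fold change 1.35). The forkhead factor Foxc2 fell (34.1 to 15.5 CPM, log2 fold change -1.14), and so did Zfp467 (11.5 to 6.66 CPM, log2 fold change -0.79), a zinc finger factor.

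**Figure D1:**
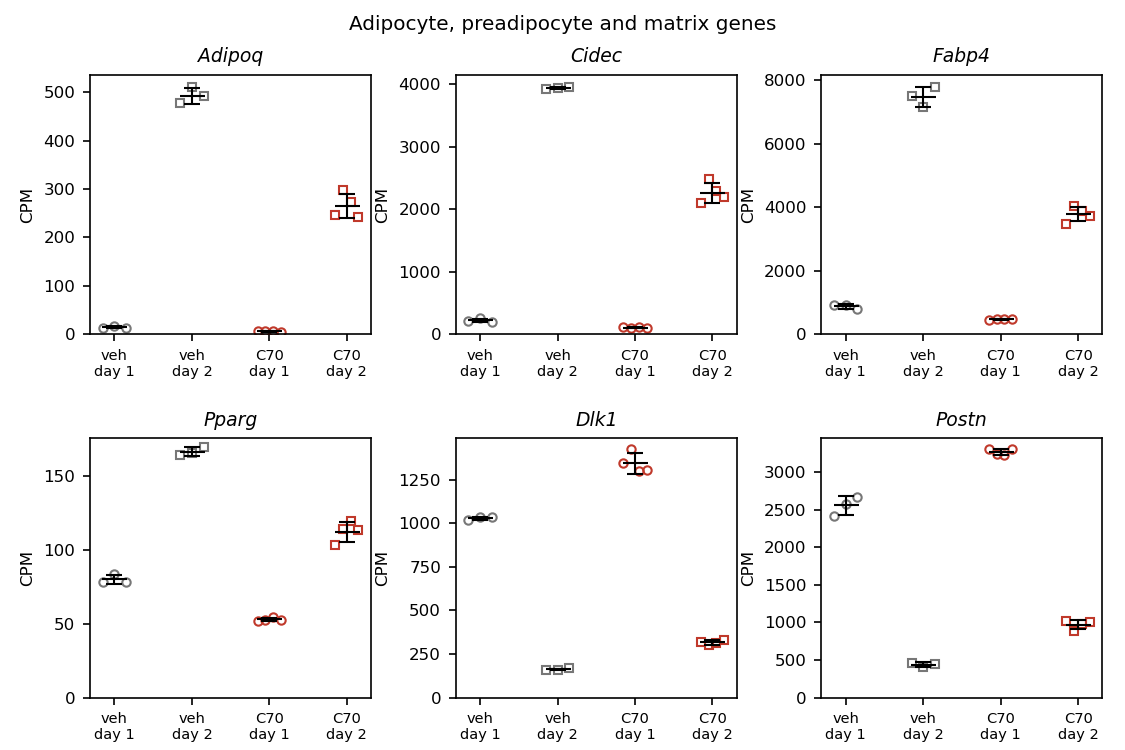
CPM of 6 adipocyte, preadipocyte and matrix genes in each day 1 and day 2 library of both arms (circles day 1, squares day 2, red C70, grey vehicle), with the mean and SD of each group as bars. Adipoq, Cidec, Fabp4 and Pparg were higher and Dlk1 and Postn lower in all 4 C70 libraries of day 2 than in the 4 of day 1.

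Cholesterol synthesis and uptake genes, which answer to SREBP2 when cell sterol is low, rose for 18 of 31 members and fell for 2, and the median log2 fold change was 0.65 (0.39 when the 25% of genes with the lowest mean were left out). The number that fell was 1 without day 1 replicate 2 or 4 or without day 2 replicate 1. Cyp51, the sterol 14-demethylase, had the largest rise, from 72.3, 66.4, 72.4 and 66.2 CPM to 577, 641, 594 and 568 (log2 fold change 3.10 (SE 0.062, adjusted P = 1.29e-26)), and its libraries of the 2 days were far apart. Insig1, an endoplasmic reticulum protein that holds back SREBP processing, rose from 47.3, 48.5, 42.2 and 46.4 to 186, 219.96, 202 and 193 CPM (log2 fold change 2.12 (SE 0.057, adjusted P = 1.37e-23)). The members that fell were Npc1, the lysosomal cholesterol exporter (98.8 to 78.1 CPM, log2 fold change -0.34, not a DEG without day 1 replicate 2, at -0.29), and Tm7sf2, a sterol reductase that shares bases with Vps51 (11.1 to 8.78 CPM, log2 fold change -0.34, not a DEG without day 1 replicate 4, at -0.26, or day 2 replicate 1, at -0.31). The box CCAAT, which the factor NF-Y reads beside SREBP sites in several sterol genes, was found on either strand in 18 of the 22 promoters available for the list (81.8%), against 37.9% of all 27025 promoters of the reference and 39.7% of the 9007 promoters found for genes of the count table. The windows ran from 250 bases before to 50 after the start (RefSeq, GRCm38.p6). The shares were 83.3% in the 12 members that rose and 77.8% in the 9 not called. CACCCCAC, part of the classical sterol regulatory element and also searched on both strands, was in 9.09% of the list, 2.77% of all promoters and 2.86% of those of the count table. The promoters of the 2 sterol genes with the largest rise are shown with CCAAT, or ATTGG where it is on the other strand, in capitals. Cyp51 is at chr5:4104648-4104947 on the minus strand and Insig1 at chr5:28071162-28071461 on the plus strand, and each sequence runs 5′ to 3′ along its gene.
Cyp51: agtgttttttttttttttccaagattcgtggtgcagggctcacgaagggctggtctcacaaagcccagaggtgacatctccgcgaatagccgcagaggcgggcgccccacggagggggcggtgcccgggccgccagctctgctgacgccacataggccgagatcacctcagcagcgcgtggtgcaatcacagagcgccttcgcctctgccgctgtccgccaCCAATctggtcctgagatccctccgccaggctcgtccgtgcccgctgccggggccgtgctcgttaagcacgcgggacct
Insig1: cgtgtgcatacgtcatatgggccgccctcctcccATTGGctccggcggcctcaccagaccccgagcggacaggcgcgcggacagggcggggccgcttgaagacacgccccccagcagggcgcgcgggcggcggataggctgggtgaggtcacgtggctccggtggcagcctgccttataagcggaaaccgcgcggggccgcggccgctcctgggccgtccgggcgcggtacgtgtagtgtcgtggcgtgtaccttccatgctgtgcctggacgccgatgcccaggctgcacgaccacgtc

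Most members of the nuclear oxidative phosphorylation and mitochondrial DNA lists rose. Of 77 nuclear genes for subunits of oxidative phosphorylation, 69 rose and 0 fell, and the median log2 fold change was 0.59, with a range of -0.017 to 1.81. With edgeR at an unadjusted P under 0.05 the count of lower genes was also 0, as it was for the DEGs of DESeq2 and limma-voom. Cycs, the electron carrier cytochrome c, rose most, from 52.6, 50.7, 57.7 and 54.1 CPM to 177, 189, 200.3 and 186 (log2 fold change 1.81 (SE 0.065, adjusted P = 1.78e-20)). The complex III subunits Uqcrfs1 (55.3 to 122 CPM, log2 fold change 1.15) and Cyc1 (96.3 to 198 CPM, log2 fold change 1.04) were named with it. Separate days were a condition for naming these genes. The table held 9 genes of mitochondrial DNA, of which 6 rose by edgeR and limma-voom and 5 by DESeq2. By all of these tools 0 fell, as at an unadjusted P under 0.05 (median 0.40). The complex I genes mt-Nd2 (2874 to 4929 CPM, log2 fold change 0.78) and mt-Nd1 (4343 to 7258 CPM, log2 fold change 0.74) had the largest rises. mt-Nd6 (86.7 to 129.9 CPM, log2 fold change 0.58) overlaps mt-Nd5 on the other strand, and without strand reads from the shared bases cannot be told apart.

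Pyruvate entry, TCA cycle and fatty acid oxidation genes rose for 38 of 49 members and fell for 3 (median 0.68). Mpc1, a subunit of the mitochondrial pyruvate carrier, rose from 22.04, 19.6, 22.3 and 20.6 CPM to 66.3, 70.8, 65.3 and 65.3 (log2 fold change 1.66 (SE 0.062, adjusted P = 5.25e-20)), and the malate dehydrogenase Mdh1 rose nearly as much (109.96 to 346 CPM, log2 fold change 1.65). Cpt1a, which lets long-chain fatty acids into mitochondria for burning, fell from 217, 220.3, 210.3 and 241 CPM to 139, 127, 138 and 144 (log2 fold change -0.70 (SE 0.058, adjusted P = 1.25e-11)). Pdk1, a kinase that shuts pyruvate dehydrogenase, also fell (104 to 75.2 CPM, log2 fold change -0.46). Both were below their day 1 range in every day 2 library.

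The cell cycle genes parted by phase. Of 59 S phase and DNA replication genes, 22 rose and 1 fell (median 0.25), while of 89 G2/M and mitosis genes 3 rose and 62 fell (median -0.59), against 18.8% of all genes that rose and 18.1% that fell. Summed over the list, S phase genes went from 1301 to 1408 CPM at day 1 to 1612 to 1667 at day 2. The S phase count of 1 lower gene became 2 without day 2 replicate 1 or 2. Ccne1, cyclin E1, which drives entry into S phase, rose from 13.5, 12.8, 12.4 and 12.5 CPM to 24.9, 24.5, 26.7 and 27.5 (log2 fold change 1.02 (SE 0.069, adjusted P = 1.15e-13)). Cdc6, which loads the replicative helicase, was low but rose, from 2.98, 2.36, 2.64 and 2.97 CPM to 4.96, 5.57, 5.63 and 7.68 (log2 fold change 1.12 (SE 0.18, adjusted P = 3.38e-06)). Day 2 libraries were higher than day 1 libraries in both. The member that fell was Chaf1b, a histone chaperone subunit of replication (10.3 to 6.98 CPM, log2 fold change -0.56). Rrm2, a ribonucleotide reductase subunit named after its value was seen, had a log2 fold change of 0.98.

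Among the mitotic genes Kif23, a kinesin of cell division, fell most, from 18.4, 16.8, 19.8 and 17.8 CPM to 6.46, 6.07, 5.75 and 5.33 (log2 fold change -1.62 (SE 0.083, adjusted P = 1.53e-16)). Pimreg, a regulator of the metaphase to anaphase switch, fell from 6.63, 5.46, 7.8 and 5.26 to 2.51, 1.57, 3.05 and 1.95 CPM (log2 fold change -1.47 (SE 0.16, adjusted P = 6.3e-09)). In both genes every day 2 library was below every day 1 library. Ccna2, cyclin A2, which acts in S phase and G2, fell from 42.2, 39.4, 43.4 and 36.3 CPM to 30.05, 28.2, 31.5 and 27.4 (log2 fold change -0.46 (SE 0.094, adjusted P = 0.000101)), also without overlap. Well-known members named after their values were seen were Ccnb2 (cyclin B2, log2 fold change -1.35), Top2a (topoisomerase, -1.06) and the proliferation marker Mki67 (-0.98), which fell. Aurka (the Aurora A kinase, -0.065) and Cdk1 (-0.23) were not DEGs. The largest rises of the list were those of Ncapg2, a condensin II subunit, from 25.2, 26.7, 26.4 and 25.3 CPM to 59.2, 65.97, 63.2 and 59.5 (log2 fold change 1.26 (SE 0.075, adjusted P = 5.82e-15)), and of the tubulin Tubb4b (84.4 to 146 CPM, log2 fold change 0.80).

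**Figure D2:**
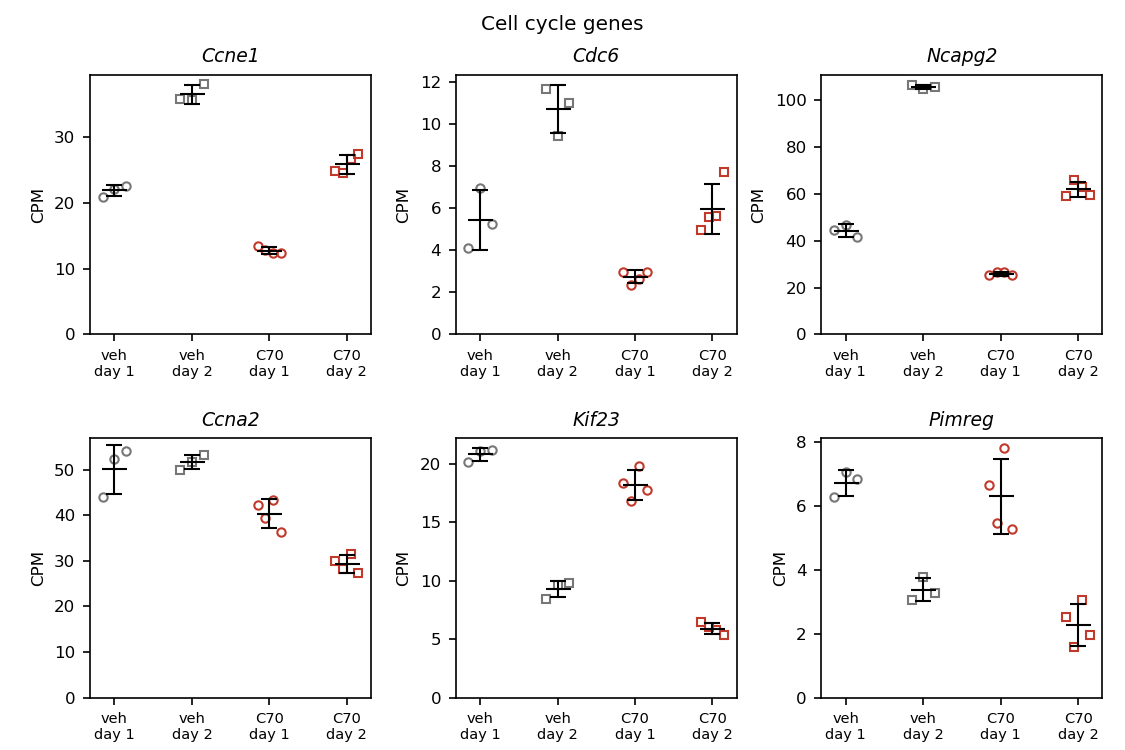
CPM of 6 cell cycle genes in each day 1 and day 2 library of both arms, with group mean and SD. Ccne1, Cdc6 and Ncapg2 rose in C70-treated cells while Ccna2, Kif23 and Pimreg fell, and Ccna2 was at 50.1 and 51.6 CPM in vehicle.

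Of 20 cyclin D, CDK, RB and CDK inhibitor genes of G1 control 7 rose (35%, against 18.8% of all genes) and 4 fell (20%, near the 18.1% of all genes; median 0.0094, or 0.13 when the 25% of genes with the lowest mean were left out). Cdk6, a cyclin D kinase, rose from 78.4, 76.5, 67.5 and 73.6 CPM to 145, 137, 149 and 134 (log2 fold change 0.93 (SE 0.10, adjusted P = 1.05e-09)), and Ccnd2, cyclin D2, rose (663 to 1232 CPM, log2 fold change 0.89). The inhibitors Cdkn2b (71.6 to 38.2 CPM, log2 fold change -0.91) and Cdkn2a (217 to 143 CPM, log2 fold change -0.60) fell. Ccnd1, cyclin D1, was at 56.5, 51.8, 49.1 and 52.6 CPM on day 1 and 47.9, 42.9, 43.998 and 43.4 on day 2 (log2 fold change -0.24 (SE 0.076, adjusted P = 0.00883)), which is under the fold threshold.

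The promoters of the mitotic list carried the cell cycle homology box TTTGAA, read by the DREAM and MuvB complexes, in 46 of 73 cases (63.0%), against 18.8% of the S phase list, 11.6% of the promoters of the count table and 18.1% of all promoters of the reference. CCAAT was found in 71.2% of mitotic and 58.3% of S phase promoters, against 39.7% of those of the count table. E2F boxes were counted as GCGGGAAA and related sequences together. They were in 31.2% of the 48 S phase promoters, 9.59% of mitotic promoters, 4.4% of those of the count table and 2.32% of all promoters. All were searched on both strands in the same window. Members that fell and members not called held the boxes at like shares, 32 of 50 and 12 of 20 promoters for TTTGAA and 36 of 50 and 14 of 20 promoters for CCAAT. Of the 3 that rose, 2 held TTTGAA. Below are the promoters of Kif23, the largest fall (chr9:61946750-61947049, minus strand), Ncapg2, the largest rise of the same list (chr12:116405186-116405485, plus strand), and Cdc6, the largest rise of the S phase list (chr11:98907901-98908200, plus strand), with TTTGAA, the CCAAT box (ATTGG on the other strand) and the E2F box in capitals. Kif23 holds CCAAT and TTTGAA a few bases apart, Ncapg2 holds TTTGAA and 2 E2F boxes, and Cdc6 a single E2F box. A match says only that the letters are there.
Kif23: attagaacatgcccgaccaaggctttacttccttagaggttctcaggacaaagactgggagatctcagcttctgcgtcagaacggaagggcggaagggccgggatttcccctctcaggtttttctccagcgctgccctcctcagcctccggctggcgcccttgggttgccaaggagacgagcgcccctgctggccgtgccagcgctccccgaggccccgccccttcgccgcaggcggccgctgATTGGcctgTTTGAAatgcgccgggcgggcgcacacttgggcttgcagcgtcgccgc
Ncapg2: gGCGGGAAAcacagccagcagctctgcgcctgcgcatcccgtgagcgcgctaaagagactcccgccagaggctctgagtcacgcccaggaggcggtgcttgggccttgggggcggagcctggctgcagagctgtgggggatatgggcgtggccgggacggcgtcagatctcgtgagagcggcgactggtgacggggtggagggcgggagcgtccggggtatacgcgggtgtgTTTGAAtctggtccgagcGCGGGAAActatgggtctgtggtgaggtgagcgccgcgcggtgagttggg
Cdc6: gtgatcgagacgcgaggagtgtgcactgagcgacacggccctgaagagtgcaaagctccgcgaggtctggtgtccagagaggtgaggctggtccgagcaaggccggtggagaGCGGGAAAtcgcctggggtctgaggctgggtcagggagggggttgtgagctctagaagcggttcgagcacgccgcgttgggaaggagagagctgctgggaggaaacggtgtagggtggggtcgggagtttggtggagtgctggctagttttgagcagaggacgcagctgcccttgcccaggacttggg

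Preadipocyte and matrix genes were among the largest falls. Dlk1, preadipocyte factor 1, which holds back adipogenesis, was at 1347, 1424, 1299 and 1303 CPM on day 1 and at 321, 301, 314 and 331 on day 2 (log2 fold change -2.08 (SE 0.089, adjusted P = 1.43e-18)). Lama5, a laminin chain of basement membranes, had the largest fall among well-expressed genes, from 268, 298, 244 and 272 to 48.9, 42.4, 46.5 and 48.7 CPM (log2 fold change -2.54 (SE 0.10, adjusted P = 2.2e-19)). The complement protease Masp1 (300.2 to 55.5 CPM, log2 fold change -2.43), the secreted factor Fstl1 (1814 to 483 CPM, log2 fold change -1.91), the matrix protein Ecm1 (579 to 157 CPM, log2 fold change -1.88), cyclooxygenase 1 (Ptgs1, 576 to 163 CPM, log2 fold change -1.82) and the matrix protein Tgfbi (119.96 to 37.8 CPM, log2 fold change -1.67) completed the 8 largest falls with Postn. Postn, periostin, a matrix protein of fibroblasts, went from 3305, 3239, 3228 and 3304 CPM to 1014, 883, 974 and 1009.8 (log2 fold change -1.75 (SE 0.066, adjusted P = 6.42e-20)). All of these genes were still detected at day 2.

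Of 37 non-collagen matrix and protease genes, 24 fell and 3 rose (64.9% and 8.11%, against 18.1% and 18.8% of all genes; median -0.48), and of 35 collagen genes 15 fell and 4 rose (42.9% and 11.4%; median -0.29). Fbn1, the fibrillin of microfibrils, fell (318 to 112 CPM, log2 fold change -1.50). Col1a2, a chain of type I collagen, fell from 4853, 5327, 5112 and 4993 CPM to 2811, 2464, 2836 and 2822 (log2 fold change -0.89 (SE 0.073, adjusted P = 8.42e-12)), and day 2 replicate 2 was the lowest of its group. Col16a1 fell further (176 to 79.1 CPM, log2 fold change -1.16). Members that rose included Col5a3 (153 to 271 CPM, log2 fold change 0.82), Col7a1 (8.84 to 12.98 CPM, log2 fold change 0.55), the collagenase Mmp13 (50.2 to 99.6 CPM, log2 fold change 0.99) and the protease inhibitor Timp4, which went from 2.05, 1.62, 2.7 and 1.46 CPM to 3.63, 6.41, 3.53 and 3.43 with day 2 replicate 2 above the other 3. Of 33 contractile and actin genes 14 fell and 2 rose (42.4% and 6.06%; median -0.26). Smooth muscle actin Acta2 fell (6.67 to 2.54 CPM, log2 fold change -1.38), as did the actin bundler Palld (113 to 58.4 CPM, log2 fold change -0.95), while vinculin (Vcl, 169 to 249.98 CPM, log2 fold change 0.57) and the non-muscle myosin Myh10 (99.3 to 131 CPM, log2 fold change 0.40) were the 2 that rose.

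Of 31 glucocorticoid and cAMP response genes, which answer to the induction medium, 13 fell and 6 rose (41.9% and 19.4%, against 18.1% and 18.8% of all genes; median -0.24), and of 28 immediate early genes 14 fell and 2 rose (median -0.31). Dusp1, a MAP kinase phosphatase, fell from 61.3, 59.7, 59.4 and 63.8 CPM to 28.1, 23.8, 24.7 and 28.5 (log2 fold change -1.21 (SE 0.074, adjusted P = 1.02e-14)), and the cAMP phosphodiesterase Pde4d (118 to 58.4 CPM, log2 fold change -1.01) and the early gene Ier3 (10.02 to 5.02 CPM, log2 fold change -0.99) fell with it. Hsd11b1, which regenerates active glucocorticoid inside cells, rose from 19.4, 18.7, 21.9 and 20.3 to 63.7, 67.04, 66.3 and 60.6 CPM (log2 fold change 1.68 (SE 0.087, adjusted P = 1.55e-16)). Ppargc1a, a coactivator of mitochondrial genes, rose (42.001 to 71.7 CPM, log2 fold change 0.77), as did Dusp4 (12.4 to 45.03 CPM, log2 fold change 1.86) and Myc (77.2 to 109 CPM, log2 fold change 0.50). Each of the 3 was higher in every day 2 library.

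Wnt, TGF-beta and BMP genes, several of which restrain adipogenesis, fell for 26 of 46 members and rose for 2 (median -0.35). Sfrp2, a secreted Wnt modulator, fell from 4.37, 4.82, 5.39 and 4.48 CPM to 1.33, 1.24, 1.08 and 1.08 (adjusted P = 9.33e-13), and the BMP antagonist Grem1 fell (449.6 to 162 CPM, log2 fold change -1.47). Their days did not overlap. Those that rose were Lef1, a nuclear partner of beta-catenin (30.2 to 45.2 CPM, log2 fold change 0.58), and Tgfb2 (19.9 to 24.9 CPM, log2 fold change 0.33). The rise of Tgfb2 was close to the fold threshold, and 1 gene rather than 2 rose without day 1 replicate 3 (log2 fold change of Tgfb2 0.30), day 1 replicate 4 (0.28), day 2 replicate 1 (0.32) or day 2 replicate 2 (0.29). It was also under the threshold with relative log expression factors, DESeq2 or the lowest 25% of genes left out (0.30 in each), quantile normalization (0.29) and the compared groups alone, with or without a replicate block (0.32).

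Stress and amino acid genes of the ATF4 pathway rose for 24 of 37 members and fell for 4 (median 0.64). Chac1, an enzyme that degrades glutathione, rose from 1.03, 1.18, 0.938 and 0.827 CPM to 8.27, 8.55, 7.96 and 8.04 (log2 fold change 3.04 (SE 0.21, adjusted P = 2.65e-13)), and the cystine transporter Slc7a11 rose from 0.257, 0.443, 0.586 and 0.243 to 4.06, 3.49, 3.29 and 3.94 CPM. Both were low on day 1. Atf4 itself, named after its value was seen, had a log2 fold change of 0.83. Pycr1, of proline synthesis, fell from 26.97, 24.1, 26.4 and 27.5 CPM to 9.45, 8.49, 9.28 and 9.27 (log2 fold change -1.52 (SE 0.078, adjusted P = 1.54e-16)), and the mTORC1 inhibitor Ddit4 fell (273 to 159 CPM, log2 fold change -0.78). Every day 2 library of Pycr1 was below every day 1 library.

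Interferon and antigen presentation genes fell for 28 of 35 members and rose for 2 (median -0.64). Oasl2, an antiviral protein, fell from 15.7, 10.9, 7.33 and 8.18 CPM to 2.13, 2.64, 2.04 and 2.66 (log2 fold change -2.15 (SE 0.27, adjusted P = 4.18e-08)). Ifit1, which binds viral RNA, fell from 10.2, 4.43, 3.46 and 3.94 CPM to 0.694, 0.9, 1.32 and 2.15 (log2 fold change -2.11 (SE 0.46, adjusted P = 0.00026)). Day 1 replicate 1 was the highest library in both, and both were still DEGs without it. The immunoproteasome subunit Psmb10 rose (11.3 to 15.2 CPM, log2 fold change 0.42).

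Of 26 glycolysis and HIF genes 3 rose (11.5%) and 7 fell (26.9%), near the 18.8% and 18.1% of all genes, and the median was -0.10. Pfkfb3, which makes the activator of phosphofructokinase, rose from 34.3, 36.4, 36.6 and 38.2 CPM to 159.8, 177, 165 and 164 (log2 fold change 2.19 (SE 0.065, adjusted P = 1.47e-22)), and hexokinase 2 (Hk2) rose (107 to 168 CPM, log2 fold change 0.65). The lactate carrier Slc16a3 (4.27 to 1.62 CPM, log2 fold change -1.40) and Ndrg1 (45.8 to 21.7 CPM, log2 fold change -1.08), a hypoxia-induced gene, fell. Cytosolic ribosomal protein genes fell for 18 of 76 by edgeR and limma-voom (23.7%, near the 18.1% of all genes) and for 27 by DESeq2. By all of these tools 0 rose, with 2 higher at an unadjusted P under 0.05. The list had a median of -0.23, and 72 of the 76 had a log2 fold change below 0. Rps20 (504 to 354 CPM, log2 fold change -0.51), Rps27 (295 to 215 CPM, log2 fold change -0.46) and Rpl27a (435 to 319.6 CPM, log2 fold change -0.44) fell most. With day 1 replicate 2, day 2 replicate 1 or day 2 replicate 2 left out, 1 ribosomal gene rose.

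Of 20 demethylases and methyltransferases of H3K4, the histone residue that KDM5 enzymes act on, 1 rose and 1 fell (5% each, against 18.8% and 18.1% of all genes; median -0.082). Kdm5a was at 199, 204, 191 and 198 CPM on day 1 and at 207, 178, 185 and 196 on day 2 (log2 fold change -0.05 (SE 0.082, adjusted P = 0.629)), and the days overlapped. Kdm5c was at 179 and 179 CPM (log2 fold change 0.00032 (SE 0.061, adjusted P = 0.997)). Kdm5b fell from 148, 163, 154 and 157 CPM to 113, 110.4, 108 and 118 (log2 fold change -0.47 (SE 0.05, adjusted P = 1.63e-09)). Dpy30, a core subunit of the methyltransferase complexes, rose (13.4 to 17.1 CPM, log2 fold change 0.35), but was not a DEG without day 1 replicate 1 (log2 fold change 0.31) or day 1 replicate 2 (0.31). Without day 1 replicate 1 or day 2 replicate 4, 2 genes of the list fell.

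**Figure D3:**
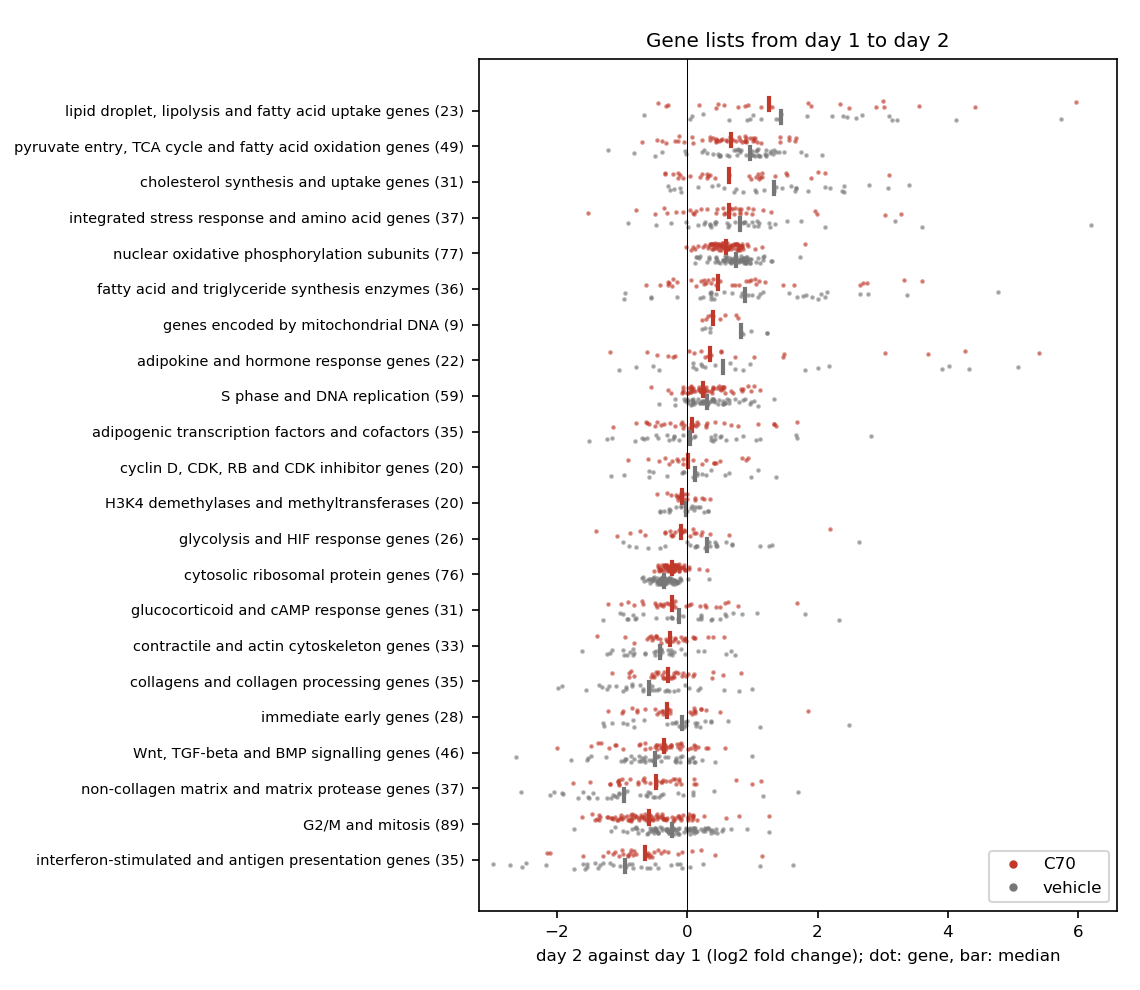
Log2 fold changes from day 1 to day 2 of the genes of each list (dots) and their medians (bars), with C70 in red and vehicle in grey and the number of genes in brackets, ordered by the C70 median. The lipid droplet list has the highest C70 median, at 1.255, and the interferon list the lowest, at -0.64.

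The vehicle arm passed through the same day in the same medium, and its libraries are not shared with the C70 arm. Of the 2253 genes that rose with C70, 1831 (81.3%, or 68.8% of those that rose in vehicle) rose in vehicle as well, and of the 2163 that fell 1741 (80.5%, or 66.2%) fell in both. Only 10 genes rose with C70 and fell in vehicle, and 18 fell with C70 and rose in vehicle. Across the 11959 genes, which are not independent replicates, the log2 fold changes of the arms had a Pearson r of 0.87 and a Spearman rho of 0.83. Of the 3572 genes called in both arms with one direction, 2769 (77.5%) had the larger change in vehicle. The median log2 fold change was 0.60 with C70 and 0.75 in vehicle for genes that rose in both, and -0.59 and -0.80 for those that fell in both.

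**Figure D4:**
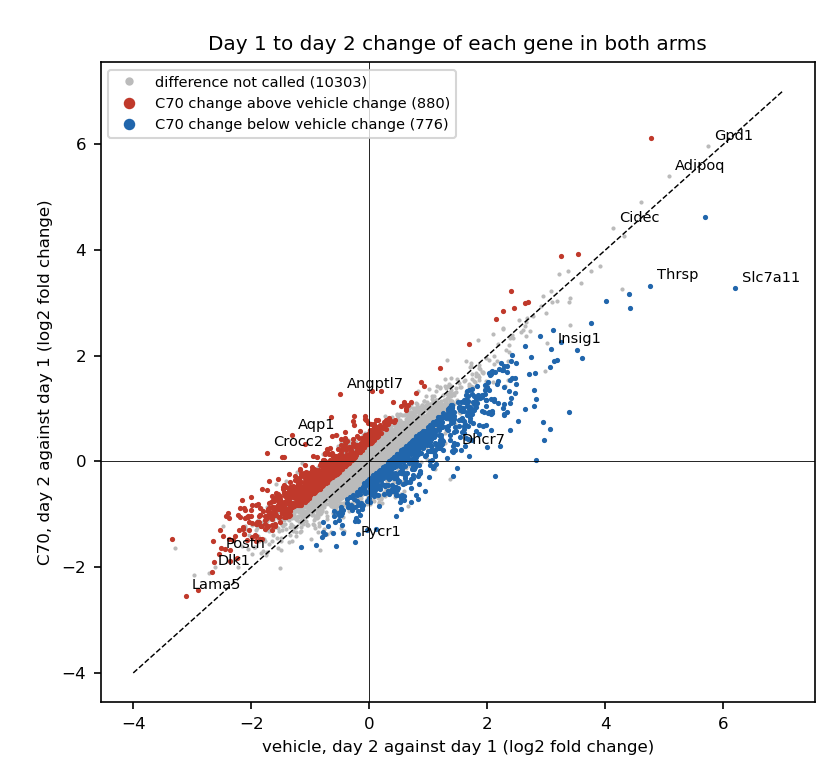
Log2 fold change from day 1 to day 2 in vehicle (horizontal) and with C70 (vertical) for 11959 genes, coloured where the difference between the arms passed the test (880 red, 776 blue), with a dashed line of equal change. Gpd1, Adipoq and Cidec lie close to the line, Crocc2, Aqp1 and Angptl7 above it and Insig1 and Dhcr7 below it.

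The difference between the arms was tested gene by gene. The change was more positive with C70 for 880 genes (7.36% of those tested) and more negative for 776 (6.49%). In the lists, the change of 18 of 31 cholesterol genes was more negative with C70 (median C70 log2 fold change 0.65, vehicle 1.33), as it was for 15 of 36 fatty acid synthesis, 14 of 26 glycolysis and 12 of 37 stress genes. It was more positive for 23 of 37 matrix and 15 of 35 collagen genes (vehicle medians -0.97 and -0.58). The 10 preadipocyte and fibroblast markers in the table share Col1a1, Col1a2 and Col3a1 with the collagen list. Of these markers, 7 were more positive with C70 and 0 more negative (median difference 0.58). Their part in the matrix difference was not tested. For the mitotic list 41 of 89 were more negative with C70 and 1 more positive, and 33 fell and 11 rose in vehicle (median -0.23). For the S phase list 1 of 59 differed, and for oxidative phosphorylation 2 of 77. The difference was above 0 in 23 of the 59 (median -0.046) and in 5 of the 77 (median -0.15). Of 49 pyruvate entry, TCA cycle and fatty acid oxidation genes, 12 were more negative with C70 and 4 more positive. Of the 10 adipocyte markers, the change of 1 was more positive with C70 (the fatty acid transporter Cd36, difference 0.44, adjusted P = 0.000311, named after its value was seen) and that of 1 more negative (Cebpa, difference -0.34, adjusted P = 0.0298, a call lost without any 1 of 5 libraries, at adjusted P = 0.052 to 0.114). Among the 8 not called, Adipoq (vehicle 14.6 to 493 CPM) had an adjusted P of 0.125 for the difference, Cidec of 0.0844, Fabp4 of 0.663 and Pparg of 0.848, which does not show that they changed alike.

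Some single genes took other courses in the 2 arms. Crocc2, a gene of the ciliary rootlet family, was at 236, 217, 266 and 268 CPM on day 1 and 271, 285, 273 and 278 on day 2 with C70, not a DEG (log2 fold change 0.17 (SE 0.065, adjusted P = 0.0293)), and at 30.8, 33.9 and 31.2 and then 10.8, 9.37 and 8.65 CPM in vehicle. The difference in log2 fold change was 1.90 (SE 0.12, adjusted P = 1.07e-11), and C70 libraries were above vehicle libraries on both days. Aqp1, a water channel, rose with C70 from 186, 183, 183 and 187 CPM to 285, 239.7, 249 and 267, and fell in vehicle from 52.2, 39.5 and 40.6 to 18.04, 15.7 and 19.6. The difference was 1.81 (SE 0.17, adjusted P = 5.24e-09). Angptl7, a secreted angiopoietin-like protein, rose from 17.98, 18.4, 22.3 and 25.6 CPM to 55.8, 52.7, 45.1 and 51.2 with C70 and fell from 68.3, 63.6 and 78.7 to 51.5, 46.5 and 52.03 in vehicle (difference 1.77, adjusted P = 6.37e-11). The day 2 levels of Angptl7 overlapped between arms, and the day 1 levels did not. Sparcl1, a matrix-associated protein, and C1s1, a complement protease, fell less with C70 (log2 fold changes -0.37 and -0.68) than in vehicle (-1.70 and -2.01).

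In the other direction, Dhcr7, the last enzyme of cholesterol synthesis, was at 118, 133, 133 and 127 CPM and then 145, 153, 152 and 146 with C70, under the fold threshold (log2 fold change 0.22 (SE 0.056, adjusted P = 0.00118)), and went from 69.1, 66.5 and 61.6 to 191, 178 and 172 CPM in vehicle. The difference was -1.23 (SE 0.086, adjusted P = 3.04e-11). The C70 libraries started above vehicle and ended below it. Rora, a nuclear receptor, rose by a log2 fold change of 0.91 with C70 and 2.09 in vehicle, Pdzd2 by 0.60 and 2.06, the annexin Anxa8 by 1.01 and 2.26, and the aldehyde dehydrogenase Aldh1a7 by 2.62 and 3.76. Insig1 rose to 599, 628 and 623 CPM in vehicle at day 2, above all C70 libraries of that day (difference -0.97, adjusted P = 1.15e-09).

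Of the cell cycle genes, Ccnd1 fell in vehicle from 33.4, 33.3 and 32.6 CPM to 14.6, 14.8 and 14.9, and the difference from the C70 arm was 0.93 (SE 0.13, adjusted P = 2.95e-06). Ccna2 was at 43.9, 52.4 and 53.99 and then 49.97, 51.7 and 53.1 CPM in vehicle, where the days overlapped, and the difference was -0.50 (adjusted P = 0.00852). With quantile normalization in limma the difference of Ccna2 was -0.49 and the call was lost (adjusted P = 0.259). Kif23 fell in both arms, with log2 fold changes of -1.62 with C70 and -1.16 in vehicle, a difference of -0.46 (adjusted P = 0.00679). Ccne1 rose in both arms, and the difference of 0.28 (adjusted P = 0.0428) was under the fold threshold. Among the preadipocyte genes, Dlk1 went from 1018, 1034 and 1033 to 159, 159 and 167 CPM in vehicle, and its fall was smaller with C70 by 0.58 on the log2 scale (adjusted P = 0.00156). Postn went from 2422, 2579 and 2675 to 464, 408 and 443 CPM, and its fall was smaller by 0.79 (adjusted P = 7.44e-07).

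**Figure D5:**
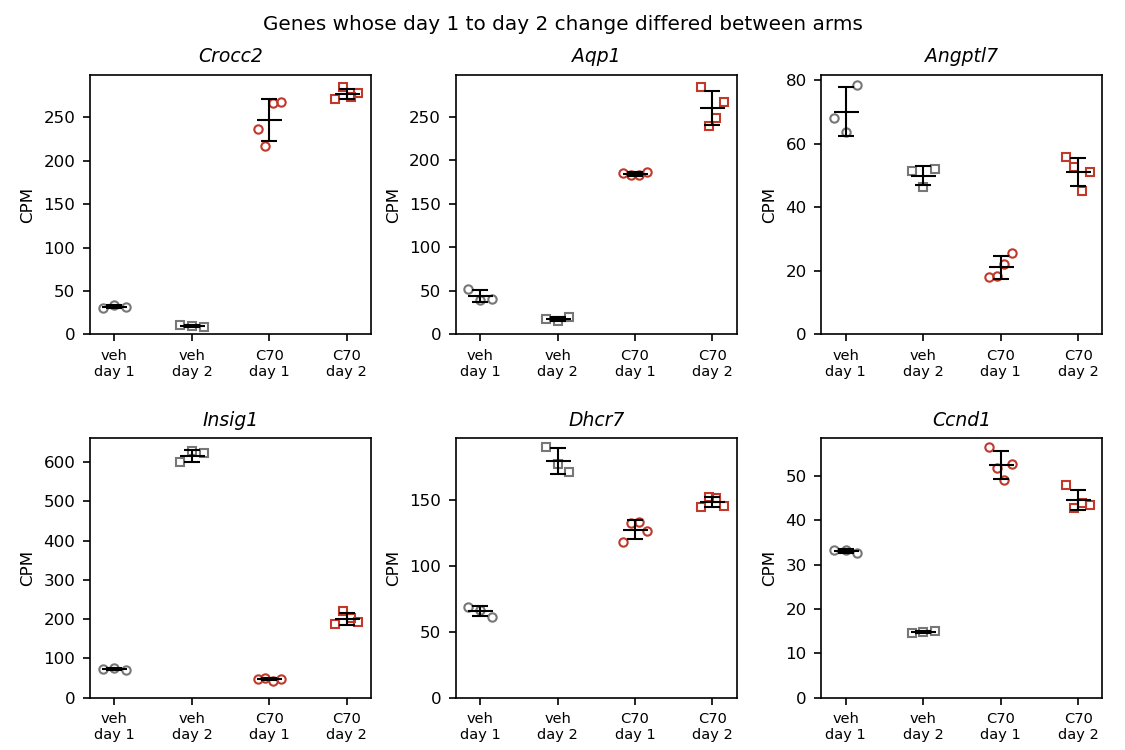
CPM of 6 genes whose day 1 to day 2 change differed between the arms, in each library with group mean and SD. Crocc2, Aqp1 and Ccnd1 were above vehicle on both days with C70, and Insig1 and Dhcr7 ended below vehicle.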

How the data were processed

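RNA-seq of 29 samples was available, and the 8 C70 and 6 vehicle libraries of days 1 and 2 were compared. The authors deposited whole-number counts per gene without scaling between samples. Per the submitters' processing notes, reads were aligned with STAR 2.7.2a to GRCm38 and analysed in edgeR 3.26.8. The study's methods give Ensembl release 97 and name a later edgeR version than the notes. The counting program, its use of strand and the filter on low genes are not given in the sources used here. The counts were scaled by the trimmed mean of M values and fitted here in R 4.3.3 with edgeR 4.0.16, all 8 groups sharing 1 model of group means (common biological coefficient of variation 0.0594). Day 2 was set against day 1 in each arm, and the difference of the 2 changes was tested as a contrast. Within a contrast, the Benjamini-Hochberg adjustment ran over all 11959 genes, and DEGs had an adjusted P under 0.05 and a log2 fold change beyond 0.32, the fold threshold of the study. CPM values use the scaled library sizes. Standard errors were derived from the log2 fold change and its F statistic.

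The lists, members and tests were chosen with earlier results of these data known. The genes named were the 8 largest rises and 8 largest falls among DEGs above the median level with groups that do not overlap, the DEGs of each list with the largest changes (up to 3, or 2 in each direction, also without overlap), the 5 largest differences between arms in each direction among genes above the median level, and 13 regulators and markers, with any other named gene marked as chosen after its values were seen. The rule picked 1 more gene, which is not reported here. Symbols were matched for 11953 genes and 6 had none, and 7 older list symbols were matched through RefSeq synonyms. Promoters were taken from RefSeq for GRCm38.p6. Those of 1 chromosome were left out of the promoters open to printing, but not out of the motif shares. Promoters were found for 9007 of the 11953 genes, and genes without one did not enter the shares. The alternatives were other fold thresholds, relative log expression factors, quantile normalization with limma 3.58.1, limma-voom, DESeq2 1.42.0, the lowest 25% of genes left out, a fit on the compared groups alone, a replicate block and each library left out in turn. The scripts were tested on simulated data. Python 3.11.15 with pandas 2.3.3 and matplotlib 3.10.9 made the tables and plots. With total counts of 16320275 to 24037170 per library, low genes carry the largest counting error. The authors' list of DEGs and the study's other assays were not used here.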

Additional observations from a re-analysis of the deposited data

Results flagged for a closer look

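With 4 samples in a group, 1 sample far from the other 3 was looked for in 260 groups (the named genes and the list levels at each day with C70), and 13 were found, against 13 that chance gives at 1 in 20. Day 2 replicate 2 held 5 of them. It was the lowest for Col1a2, at 2464 CPM against 2811 to 2836, and the highest for Timp4, at 6.41 against 3.43 to 3.63. It was also the highest for the mean level of 3 lists, in log2 units around the mean of the 8 libraries: fatty acid and triglyceride synthesis (0.43 against 0.37 to 0.38), lipid droplet genes (0.90 against 0.80 to 0.81) and cholesterol genes (0.42 against 0.36 to 0.37). On day 2, Tubb4b was low in replicate 1 (136 CPM against 149 to 150.3), Uqcrfs1 low in replicate 4 (114.5 CPM against 125 to 126) and Vcl high in replicate 3 (257 CPM against 248). On day 1, Npc1 was high (107.9 CPM against 94.9 to 97.1) and Psmb10 low (9.65 against 11.8 to 11.9) in replicate 2, and Ifit1 high in replicate 1 (10.2 CPM against 3.46 to 4.43). The contractile list was low in day 1 replicate 3 (0.12 against 0.14 to 0.15) and the Wnt, TGF-beta and BMP list high in day 1 replicate 1 (0.26 against 0.18 to 0.20).

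Of the 108 genes named by rule, 49 had a day 1 to day 2 log2 fold change that differed between C70 and vehicle. The call was by edgeR's quasi-likelihood test, which called 1656 of all 11959 genes (880 more positive and 776 more negative with C70). Crocc2, Aqp1, Angptl7, Sparcl1, C1s1, Pdzd2, Anxa8, Dhcr7, Rora and Aldh1a7 were named for the size of this difference. Their calls are therefore not a separate result. The change was more positive with C70 in Crocc2 1.90, Aqp1 1.81, Angptl7 1.77, Sparcl1 1.33, C1s1 1.33, Ccnd1 0.93, Col16a1 0.83, Postn 0.79, Fstl1 0.71, Tgfbi 0.69, Col1a2 0.66, Dlk1 0.58, Cpt1a 0.53, Ecm1 0.48, Masp1 0.46, Ptgs1 0.42 and Fbn1 0.42. It was more negative in Slc7a11 -2.92, Pdzd2 -1.47, Thrsp -1.44, Pycr1 -1.27, Anxa8 -1.25, Dhcr7 -1.23, Rora -1.18, Aldh1a7 -1.14, Klf15 -1.14, Tm7sf2 -1.05, Insig1 -0.97, Pdk1 -0.72, Mmp13 -0.71, Hk2 -0.65, Hsd11b1 -0.64, Dusp4 -0.63, Chaf1b -0.61, Ccna2 -0.50, Kif23 -0.46, Pfkfb3 -0.44, Mdh1 -0.41, Lef1 -0.41 and Plin2 -0.37. Slc7a11 was at a mean of 0.0769 CPM in vehicle on day 1, a few counts per library, so its fitted difference depends on the prior count and is not a bound.

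In the other 9 of the 49 genes the call was lost when 1 library was left out. The differences were 0.34 for Fabp5, 0.57 for Lama5, 0.38 for Foxc2, 0.41 for Ppargc1a and 0.35 for Myc, and -0.43 for Cdk6, -0.34 for Nr1h3, -0.44 for Col7a1 and -0.34 for Cebpa. Fabp5 was lost without vehicle day 1 replicate 1 or 2, C70 day 1 replicate 1, 2 or 4, vehicle day 2 replicate 1, 2 or 3 or C70 day 2 replicate 2 or 3 (adjusted P = 0.0538 to 0.177). Lama5 was lost without vehicle day 1 replicate 1 or vehicle day 2 replicate 3 (adjusted P = 0.0719 to 0.0914). Foxc2 was lost without vehicle day 1 replicate 2 or 3, C70 day 1 replicate 2 or 4, vehicle day 2 replicate 2 or 3 or C70 day 2 replicate 1, 2 or 4 (adjusted P = 0.0508 to 0.11). Ppargc1a was lost without vehicle day 1 replicate 1 or 3, C70 day 1 replicate 1, 2 or 3, vehicle day 2 replicate 1, 2 or 3 or C70 day 2 replicate 1 or 2 (adjusted P = 0.0574 to 0.16). Myc fell under the fold threshold without vehicle day 1 replicate 2 or C70 day 2 replicate 2 (difference 0.28 and 0.31). Cdk6 was lost without vehicle day 1 replicate 2 or 3, C70 day 1 replicate 1 or 2, vehicle day 2 replicate 2 or C70 day 2 replicate 2 or 4 (adjusted P = 0.0537 to 0.0895). Nr1h3 was lost without vehicle day 1 replicate 1, C70 day 1 replicate 2, 3 or 4, vehicle day 2 replicate 1, 2 or 3 or C70 day 2 replicate 1, 3 or 4 (adjusted P = 0.0534 to 0.222). Col7a1 was lost without vehicle day 1 replicate 3 or vehicle day 2 replicate 2 (adjusted P = 0.0535 to 0.0596). Cebpa was lost without vehicle day 1 replicate 1, C70 day 1 replicate 1 or 2, vehicle day 2 replicate 3 or C70 day 2 replicate 1 (adjusted P = 0.052 to 0.114). With quantile normalization in limma, 4 further calls were lost: Masp1 (difference 0.44, adjusted P = 0.0506), Chaf1b (-0.63, adjusted P = 0.139), Ccna2 (-0.49, adjusted P = 0.259) and Plin2, which was under the fold threshold (-0.32). Lama5, Nr1h3, Foxc2 and Ppargc1a were also lost there (adjusted P = 0.0563 to 0.124), and Nr1h3 and Cebpa were under the fold threshold in the fit of the compared groups alone (-0.31 and -0.32).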

How the results depend on the processing

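The direction of every named DEG with C70 was the same under all alternatives tried, and the call or its absence held in 1493 of 1512 fits of the named genes with a library left out and in 925 of 959 other fits. The fold threshold moved the counts most. On the adjusted P alone there were 7005 DEGs with C70 (3595 higher, 3410 lower). The change was then more positive than in vehicle for 1324 genes and more negative for 1049. With a fold change over 1.5 there were 2013 (1003 and 1010) with C70, 2964 (1484 and 1480) in vehicle and 638 (303 and 335) for the difference. Ribosomal genes that fell numbered 55 on the adjusted P alone and 0 over 1.5-fold, against 18. Leaving out the 25% of genes with the lowest mean left 40 mitotic genes, of which 31 fell, and 21 interferon genes, of which 16 fell. It moved list medians to 0.13 for cyclin D and CDK genes, 0.29 for adipokine, 0.39 for cholesterol, -0.64 for matrix, -0.39 for immediate early and 0.58 for stress genes. Quantile normalization moved them to 0.0076 for adipogenic factors, 0.42 for fatty acid synthesis, 0.51 for mitochondrial DNA, -0.28 for glucocorticoid and cAMP, 0.58 for stress and -0.12 for H3K4 genes. The cause was not tested. With a library left out, DEGs ranged from 4230 to 4420 with C70 and from 1439 to 1635 for the difference, the interferon median from -0.78 to -0.62 and the matrix median from -0.58 to -0.45.

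Whether replicate numbers pair the samples was not settled, because the correlations were weak and mixed. Same-numbered C70 samples correlated at 0.0077 to 0.18, and most different-numbered ones correlated negatively. Not every sample correlated best with its own number, and in vehicle some same-numbered samples correlated negatively. With C70, the replicate pairs that differed most and least were the same on both days. In vehicle, the same replicate number stood apart on both days. A replicate block gave 2209 higher and 2244 lower DEGs with C70 in the fit of the compared groups, against 2202 and 2224 without it, and 1097 and 823 for the difference, against 1096 and 798. Relative log expression factors gave 46.0% rises among C70 DEGs, against 51.0%. The number of libraries, 4 and 3 a group, and the low counts of genes such as Slc7a11 and Ifit1 limit the precision.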
